A study of Mus musculus with 48 samples.

Results

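The hippocampal transcriptome of prenatally stressed mice labelled as heterozygous for the serotonin transporter gene was compared between the offspring whose social behaviour had been affected (SA) and those in which it had not (SU). The libraries were taken by their labels alone: 8 libraries labelled 5-Htt+/- and PS-susceptible form SA, and 9 labelled 5-Htt+/- and PS-resilient form SU, together 17 of the 48 libraries of the series. All 17 came from C57BL/6 females aged 3 months whose dams had been restrained in 3 daily sessions between embryonic days 13 and 17. The other libraries were unstressed 5-Htt+/- controls (C, n = 7) and, of 5-Htt+/+ offspring, 8 C, 8 SA and 8 SU, of the same sex, strain and age. SA and SU were told apart by a cut-off in the 3-chamber sociability test, so both come from 1 stressed population and were not treated differently. Each library holds RNA of the hippocampi of both hemispheres of 1 mouse, blended, and the labels do not give the litter, so the p-values measure the spread between these libraries, of which some may share a dam.

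The serotonin transporter, encoded by Slc6a4, returns released serotonin to the neuron, and mice with 1 inactive allele are used as a model of lowered uptake. Stress of the dam in late gestation acts while the hippocampus and its serotonergic input are being laid down, and a part of the offspring later shows altered social approach. The hippocampus borders the ventricles, where the choroid plexus, a secretory epithelium that makes cerebrospinal fluid and a large amount of transthyretin (Ttr), can stay attached to the dissected tissue. Its transcripts are therefore a common source of spread between hippocampal libraries.

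Total counts ranged from 16488405 to 30101091 per library in SA and from 19196053 to 38213754 in SU, with means of 25587026 ± 4984609 (SD, n = 8) and 25188486 ± 5997566 (SD, n = 9). The principal neuron markers Neurod6, with 126 to 176 CPM (the reads of a gene relative to those of its library, brought to a common scale by the upper quartile), Prox1, with 73.0 to 119 CPM, and Wfs1, with 52.3 to 126 CPM, were present in all 17 libraries, as the tissue label states. Slc6a4 itself was listed at 12.8 to 16.9 CPM in SA, 13.3 to 17.0 CPM in SU and 13.6 to 15.9 CPM in the 5-Htt+/- controls, against 0 to 0.261 CPM in all libraries labelled 5-Htt+/+. The targeted gene thus had its higher level in the libraries labelled as carrying the inactive allele, and it separated the genotype labels completely. As the level in the libraries labelled 5-Htt+/+ was close to 0, a lowering by an inactive allele could not be read from this transcript. The cause of the higher level in the libraries labelled 5-Htt+/- was not tested, and genotypes are named here as labelled. Slc6a4 did not separate SA from SU, with a log2 fold change (SA over SU) of 0.00 ± 0.06 (SE).

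No gene passed an adjusted p of 0.05 between SA and SU 5-Htt+/-. Of 31208 genes tested, 0 (0%) were called by the quasi-likelihood test of edgeR with Benjamini-Hochberg adjustment, and 1183 (3.79%) had an unadjusted p under 0.05. Of these 1183 genes, 509 (1.63% of all tested) had the higher level in SA and 674 (2.16%) the lower. Under TMM scaling in place of the upper quartile the split was 654 to 511, so the direction of the majority depended on the scaling. DESeq2 likewise called 0 genes, with 935 at an unadjusted p under 0.05, whereas the likelihood ratio test of edgeR called 1, Trp63. The genes described next are those with the smallest unadjusted p among the 20027 genes of at least 1 CPM, 10 in each direction. They were chosen by this comparison, so their values describe it, and none of them is a called difference. The adjusted p of edgeR was 0.864 for Trp63 and, rounded, 1.0 for each of the other genes named.

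Among the 10 genes with the higher level in SA, Aspg, which encodes an asparaginase (chr12:112106683-112127573, plus strand, GRCm38), had the smallest p. Its level ran from 1.19 to 2.10 CPM in SA with a median of 1.64, and from 0.660 to 1.63 CPM in SU with a median of 0.918. Of 8 SA libraries 4 lay above every SU library and 7 SU libraries lay below every SA library. The log2 fold change was 0.69 ± 0.16 (SE), at an unadjusted p of 1.20e-04.

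Coro6, a coronin that binds actin filaments (chr11:77462411-77470484, plus strand), showed the widest separation of this group of genes. In SA it ranged from 13.9 to 25.1 CPM with a median of 16.2, and in SU from 9.64 to 14.3 CPM with a median of 12. Of 8 SA libraries 7 exceeded the highest SU library, and the log2 fold change was 0.51 ± 0.14. Epha8, an ephrin receptor tyrosine kinase that guides axons, stood at 2.13 to 3.54 CPM in SA (median 2.56) and at 1.24 to 3.06 CPM in SU (median 1.74), with a log2 fold change of 0.47 ± 0.14. Here 7 of 9 SU libraries were below the lowest SA library while the other two reached into the SA range.

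P3h2, which hydroxylates proline in collagens, had medians of 5.98 CPM in SA and 4.97 CPM in SU, with ranges of 5.33 to 7.04 and 3.54 to 6.43. Mfng, a fringe glycosyltransferase that modifies Notch, had medians of 2.62 and 1.99 CPM. Smaller differences were found for Ttc7, with medians of 10.6 and 9.52 CPM, and for Pcnt, the pericentrin that scaffolds the centrosome, with 31.8 and 30.2 CPM. The remaining 3 were a microRNA annotation (AL954388.1, log2 fold change 0.33), the annotated pseudogene Zcwpw2 (0.30) and Gm42748 (0.91), a transcript annotated without experimental evidence,, which owed its difference to 2 SA libraries at 3.35 and 3.58 CPM against at most 1.53 CPM in the other 15. AL954388.1 lies inside Fam73b and Gm42748 overlaps Ppp1cc, so their reads could belong to those genes.

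The unstressed 5-Htt+/- controls stood nearer to SA than to SU for several of these genes. Coro6 ranged from 10.4 to 28.5 CPM in the 7 controls with a median of 15.2, and Epha8 from 2.45 to 3.75 CPM with a median of 2.77. For 9 of the 10 genes the control median was above that of SU, and for 8 of 10 it was below that of SA. For the 10 genes lower in SA, described below, the control median was above that of SU for 1 and below that of SA for 2. The genes were chosen by SA and SU alone, so control medians between these groups follow in part from that choice. The controls varied more than the stressed groups for Coro6, with an SD of 6.60 CPM against 3.57 in SA and 1.44 in SU.

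**Figure D1:**
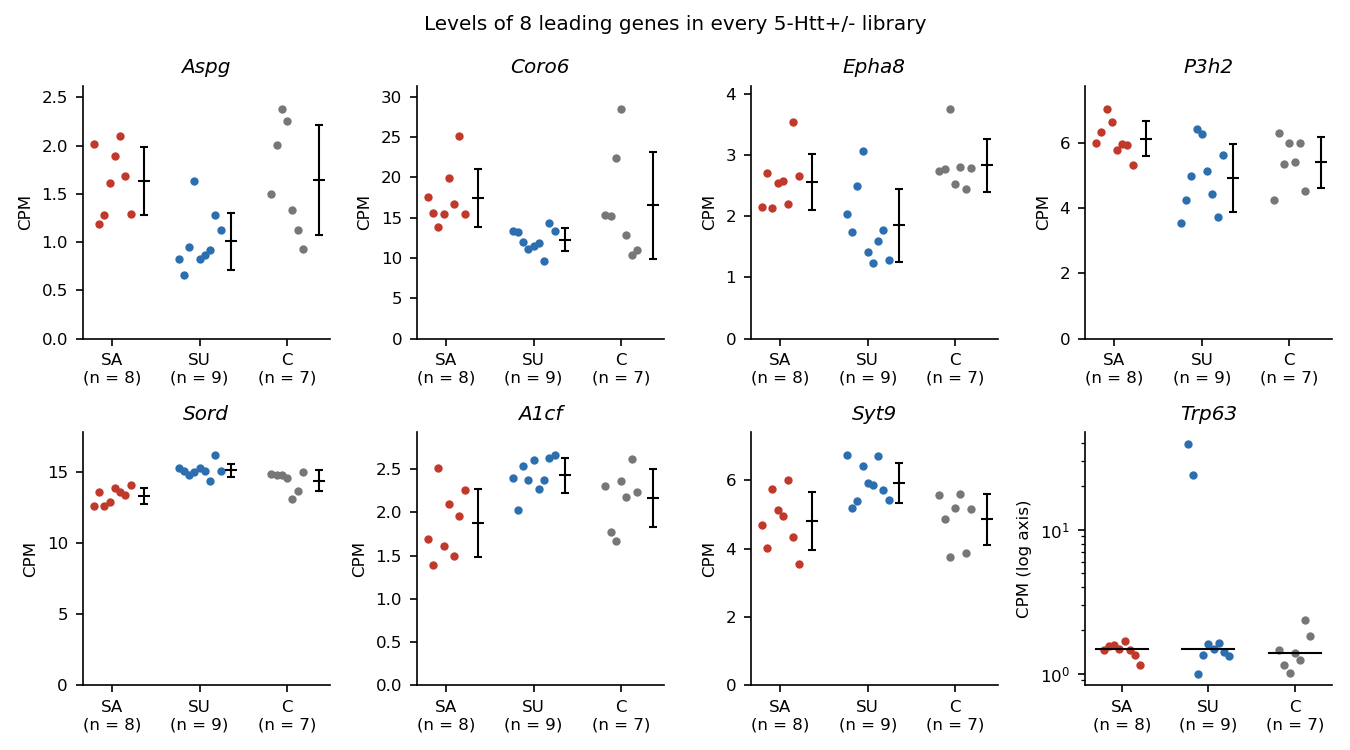
Levels in CPM of 8 of the leading genes (y axes start at 0, except the log axis of Trp63) in every 5-Htt+/- library, grouped as SA, SU and unstressed controls (C). Points are libraries, black marks with bars the mean and SD, and lines for Trp63 the median. All 8 SA libraries lie below all 9 SU libraries for Sord, and 2 SU libraries, at 24.0 and 39.4 CPM, hold the whole difference of Trp63.

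Among the 10 genes with the lower level in SA, Sord was the most evenly separated. This gene encodes sorbitol dehydrogenase, which turns sorbitol into fructose, and lies at chr2:122234749-122265340 on the plus strand. Its 8 SA libraries lay between 12.6 and 14.1 CPM (median 13.5) and its 9 SU libraries between 14.4 and 16.2 CPM (median 15.1), so the groups did not overlap. The difference was small, with means of 13.3 ± 0.597 and 15.1 ± 0.482 CPM (SD) and a log2 fold change of -0.18 ± 0.05, at an unadjusted p of 3.43e-04. The controls, at 13.1 to 15.0 CPM with a median of 14.8, overlapped with both groups.

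Only 3 of the 31208 genes (0.00961%) had groups without overlap, all of them lower in SA. There are 24310 ways to assign 17 libraries to groups of 8 and 9. Among 31208 genes, a few without overlap therefore arise by chance alone, and these 3 are described without a claim beyond that. The other two, named here after their values were seen, were Ilf2, which encodes a nuclear factor of RNA metabolism, and Cnot11, a subunit of the CCR4-NOT deadenylase. Ilf2 had 51.5 to 55.3 CPM in SA and 56.0 to 60.9 CPM in SU, a log2 fold change of -0.11 ± 0.04. For Cnot11 the ranges were 19.9 to 21.0 and 21.5 to 23.8 CPM, a log2 fold change of -0.13 ± 0.05.

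A1cf, an RNA-binding cofactor of cytidine deamination, ranged from 1.39 to 2.52 CPM in SA and from 2.03 to 2.66 CPM in SU, with 5 SA libraries below every SU library and a log2 fold change of -0.38 ± 0.10. Tpbg, a membrane glycoprotein that modulates Wnt signalling, had medians of 4.61 CPM in SA and 5.16 CPM in SU, and 2 SU libraries at 7.05 and 8.89 CPM stood above all others. Syt9, a calcium sensor of vesicle release, had 3.55 to 6.01 CPM in SA (median 4.83) and 5.18 to 6.73 CPM in SU (median 5.87), with 6 SA libraries below the lowest SU library. Its log2 fold change was -0.32 ± 0.10 at an unadjusted p of 2.04e-03.

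The remaining genes with the lower level in SA were mostly noncoding. Gm22489, a small nucleolar RNA within the host gene Gas5, had medians of 6.68 and 8.54 CPM in SA and SU. The processed pseudogenes Gm6652 and Ube2nl had log2 fold changes of -0.22 and -0.17, and Gm37678, a transcript annotated inside Qrich1 without experimental evidence, had -0.33. Reads of such copies and of transcripts inside other genes cannot be assigned with certainty. Gm42726, annotated antisense to Ube2k, ranged from 0.694 to 1.31 CPM in SA, whereas 4 SU libraries stood at 3.6 to 4.9 CPM and the other 5 at 0.727 to 1.51.

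Trp63, the transcription factor p63 of the p53 family (chr16:25683763-25892102, plus strand), had the smallest p of all genes tested. All 8 SA libraries had 1.15 to 1.69 CPM and 7 of the 9 SU libraries 1 to 1.62 CPM, while SU replicates 1 and 2 had 39.4 and 24.0 CPM. No control exceeded 2.37 CPM. The log2 fold change was -2.48 ± 0.54 at an unadjusted p of 2.77e-05 and an adjusted p of 0.864. Without SU replicate 1 it was -1.46, and without both libraries 0.04 at an unadjusted p of 0.749, so that the difference rested on them. The neighbouring genes did not share this pattern: Tprg had 0.179 and 0.0471 CPM and P3h2 3.54 and 4.24 CPM in the same 2 libraries, within or below the range of the other SU libraries.

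The Ttr level addressed how much attached choroid plexus differed between the groups. The level lay in separate ranges: 28 of the 48 libraries had at most 34.8 CPM and 20 had at least 226 CPM. In SA, 5 libraries had 9.42 to 19.4 CPM and 3 had 311, 560 and 617 CPM. In SU, 3 libraries had 5.64 to 10.6 CPM and 6 had 226, 226, 382, 466, 603 and 772 CPM. High Ttr was thus more frequent in SU, with 6 of 9 libraries against 3 of 8, a difference that did not pass Fisher's exact test (two-sided p = 0.347). The mean log2 CPM was 5.61 ± 2.75 in SA and 6.81 ± 2.84 in SU (SD), a difference of -1.19 (exact permutation test, two-sided p = 0.386, adjusted p = 0.515 over 4 measures).

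The list of 25 choroid plexus genes, Ttr included, followed the Ttr level: for 21 of them, Ttr by definition, each of the SA and SU 5-Htt+/- libraries of high Ttr exceeded all of those of low Ttr. In the 9 SA and SU libraries of high Ttr, Clic6, a chloride channel protein, had 8.66 to 28.1 CPM against 1.27 to 2.91 CPM in the 8 of low Ttr. Kcne2, a potassium channel subunit, had 1.63 to 7.47 against 0.104 to 0.280 CPM. The folate receptor Folr1 had 1.43 to 7.26 against 0.108 to 0.317 CPM, and Kl, which encodes klotho, 26.9 to 62.7 against 14.7 to 19.6 CPM. None of these 4 markers was at 0 in any of the 17 libraries, whereas Wfdc2 reached 0 in the low range. The summed level of the list ran from 184 to 1350 CPM in SA with a median of 217, and from 172 to 1770 CPM in SU with a median of 651. In bulk tissue, fewer choroid plexus cells and less RNA per cell cannot be told apart.

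**Figure D2:**
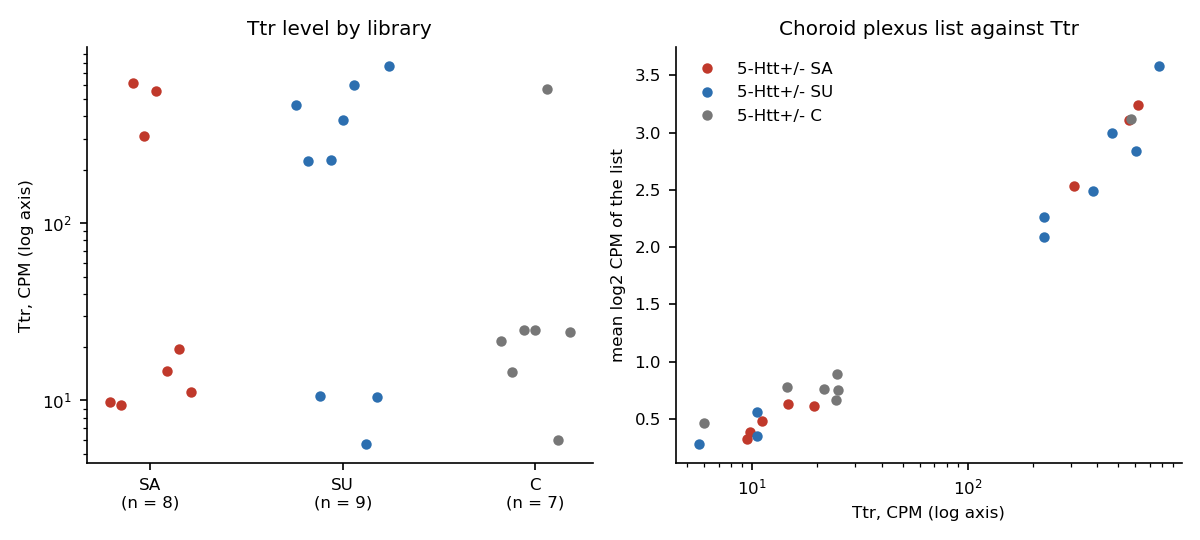
The left panel gives the Ttr level in CPM (log axis) in every 5-Htt+/- library of SA, SU and C, and the right panel the mean log2 CPM of the 25 choroid plexus genes, Ttr included, against it. Libraries fall into a low and a high range, with 3 of 8 SA, 6 of 9 SU and 1 of 7 C libraries in the high range.

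All 25 choroid plexus genes had the lower fitted level in SA, where 50.7% of all genes tested did, and the median log2 fold change was -0.40 against 0.00 over all genes. None of the 25 was called or had an unadjusted p under 0.05. The smallest p belonged to the transcription factors Lmx1a (log2 fold change -0.46 ± 0.38, unadjusted p = 0.238) and Otx2 (-0.64 ± 0.57, unadjusted p = 0.269), and Ttr itself had -0.63 ± 1.08 (unadjusted p = 0.562). Single libraries moved the list median, which ran from -0.82 without SA replicate 5 to -0.09 without SU replicate 9, and Lmx1a had -0.98 (unadjusted p = 0.014) without SA replicate 3. With the log2 Ttr level as a term of the fit the list median was 0.06, with 17 of 25 genes above 0. It was 0.11 without the libraries of high Ttr and 0.25 among only these. As Ttr belongs to the list and sets both the term and the ranges, these medians are in part fixed by that choice. In the libraries labelled 5-Htt+/+ the order was the opposite: 5 of 8 SA and 2 of 8 SU libraries had high Ttr, all 25 genes had the higher fitted level in SA, and the list median was 0.79.

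The leading genes were then followed with the Ttr level taken into account. Since the genes were chosen on the same libraries, these values describe how much each difference moved. With Ttr as a term, 0 genes were called and 1297 had an unadjusted p under 0.05, and 1051 of the 1183 genes of the fit without it were among them in the same direction. All 20 leading genes kept an unadjusted p under 0.05. Aspg had a log2 fold change of 0.70 in place of 0.69, Coro6 0.50 in place of 0.51, Sord -0.18 in both and Syt9 -0.30 in place of -0.32.

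Leaving out the libraries of high Ttr left 5 SA and 3 SU libraries. Of the 20 leading genes 19 had the same direction, the exception being Trp63 at 0.00, whose 2 high libraries were both of high Ttr, and 12 had an unadjusted p under 0.05. Among only the libraries of high Ttr, 3 SA and 6 SU, all 20 had the same direction and 11 an unadjusted p under 0.05. Of the 1183 genes counted above, 432 of 1118 tested again passed the same unadjusted threshold in the same direction without the libraries of high Ttr, and 16 had the opposite sign. Among only the libraries of high Ttr these were 223 of 1079 and 26. Aspg differed by 0.65 ± 0.26 without and 0.71 ± 0.24 among the libraries of high Ttr, and Coro6 by 0.60 ± 0.24 and 0.42 ± 0.15. By contrast, Tpbg differed by -0.83 ± 0.17 in the low range and by -0.02 ± 0.12 in the high range, Gm37678 by -0.55 and -0.07, and Mfng by 0.49 and 0.13. For Tpbg, 2 of the 3 SU libraries of low Ttr were those at 7.05 and 8.89 CPM described above. Whether the difference of any gene depends on the range was not tested.

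**Figure D3:**
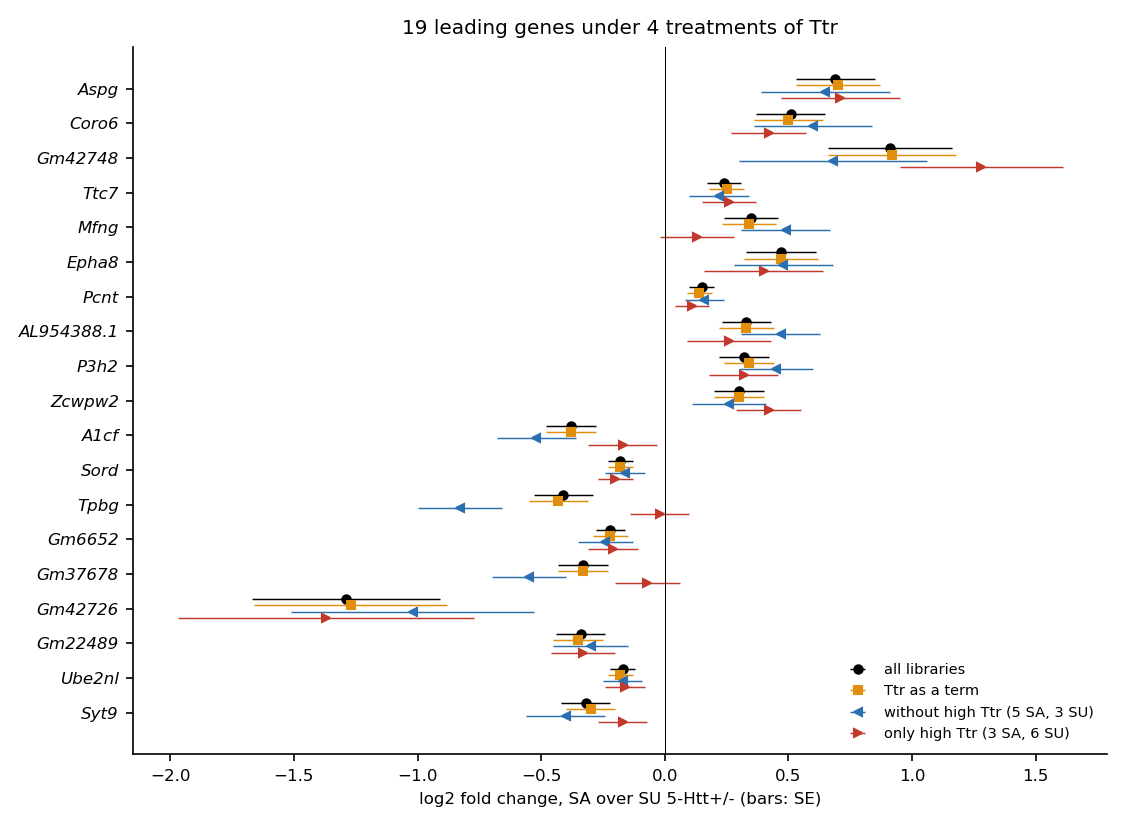
Log2 fold change (x axis, SA over SU 5-Htt+/-, bars SE) of 19 of the 20 leading genes (rows) in the fit of all libraries, with the Ttr level as a term, without the libraries of high Ttr and among only these. Trp63 is left out for its scale. The first and second fits lie close together for every gene. The values of Tpbg, Gm37678 and Mfng lie apart between low and high Ttr, which was not tested.

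Genes of motile cilia, which ependymal cells and choroid plexus share, were described next. Of 33 tested, 26 had the lower fitted level in SA, the median log2 fold change was -0.09, and 2 had an unadjusted p under 0.05. Rsph1, of the radial spoke head, ranged from 1.40 to 2.58 CPM in SA (median 2.17) and from 2 to 4.6 CPM in SU (median 2.60), a log2 fold change of -0.36 ± 0.15 (unadjusted p = 0.0204). Mapk15, a kinase of ciliogenesis that the study named from these samples, had 0.348 to 0.746 CPM in SA and 0.277 to 1.25 CPM in SU, a log2 fold change of -0.55 ± 0.25 (unadjusted p = 0.0310). Of the SU libraries 3 exceeded every SA library and 1 lay below them all. With Ttr as a term Mapk15 had -0.43 (unadjusted p = 0.0627) and Rsph1 -0.26 (unadjusted p = 0.0369). Without the libraries of high Ttr, Mapk15 had 0.10 (unadjusted p = 0.794), and the list median was 0.16 with 21 of 33 genes higher in SA. Among only the libraries of high Ttr, Mapk15 had -0.70 (unadjusted p = 0.0284), at 0.433 to 0.585 CPM in 3 SA and 0.662 to 1.25 CPM in 6 SU libraries. How many of all genes separate in so small a split was not counted, so these ranges are descriptive. The list median there was -0.06, with 10 of 33 higher and 3 at an unadjusted p under 0.05. Over all 17 libraries the summed level of the cilia list overlapped, at 311 to 364 CPM in SA and 297 to 375 CPM in SU.

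The serotonin system showed no common direction. Of 23 genes, 13 had the higher fitted level in SA, the list median was 0.00, and 2 had an unadjusted p under 0.05. Maob, monoamine oxidase B of astrocytes, ranged from 14.3 to 19 CPM in SA (median 16.7) and from 17.1 to 23.4 CPM in SU (median 19.7). Of the SA libraries 5 lay below every SU library, and the log2 fold change was -0.22 ± 0.07 (unadjusted p = 2.93e-03), with controls at 15.6 to 18.3 CPM. Ddc, the decarboxylase that makes serotonin and dopamine, had medians of 4.44 CPM in SA and 3.80 CPM in SU, a log2 fold change of 0.20 ± 0.09 (unadjusted p = 0.0280). Neither passed the adjustment.

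Stress hormone and social peptide genes were also close to the level of all genes. In glucocorticoid and stress hormone signalling, 9 of 21 genes had the higher level in SA, the median was -0.03 and 1 had an unadjusted p under 0.05. This was Crhr1, the receptor of corticotropin-releasing hormone, with 10.8 to 15.4 CPM in SA and 9.47 to 12.5 CPM in SU (log2 fold change 0.15 ± 0.06, unadjusted p = 0.0172). Sgk1, a glucocorticoid-induced kinase, had 41.8 to 55.8 CPM in SA and 45.9 to 62.0 CPM in SU, against 60.9 to 88.6 CPM in the controls, so that it did not separate SA from SU (-0.08 ± 0.09). Among 14 social and other neuropeptide genes 6 had the higher level in SA and the median was -0.02. The vasopressin receptor Avpr1a, at 0.0994 to 0.320 CPM in SA and 0 to 0.188 CPM in SU, had 0.80 ± 0.39 (unadjusted p = 0.0444) at a level of few reads. The oxytocin receptor Oxtr, at 6.99 to 11.9 and 7.86 to 11.1 CPM, had 0.05 ± 0.10 (unadjusted p = 0.647).

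Of 34 glutamate and GABA receptor subunits 23 had the higher level in SA, with a median of 0.03, and 7 of 34 in 5-Htt+/+, with a median of -0.07. The metabotropic receptor Grm4 had medians of 10.8 CPM in SA and 9.88 CPM in SU (0.29 ± 0.12, unadjusted p = 0.0227), and the kainate receptor subunit Grik1 had 26.5 and 22.9 CPM (0.23 ± 0.10, unadjusted p = 0.0254). Of 16 synaptotagmins, 1 had an unadjusted p under 0.05, the Syt9 described above, and the list median was 0.00. Immediate early genes had a median of -0.06 with 6 of 19 higher in SA and none at an unadjusted p under 0.05, and the circadian clock one of 0.00 with 9 of 19.

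Glial and neuronal marker lists differed little. Of 16 genes of mature myelin, 15 had the higher fitted level in SA, with a median of 0.11 and none at an unadjusted p under 0.05. Aspa, aspartoacylase of oligodendrocytes, had medians of 16.5 and 15.0 CPM (0.20 ± 0.12, unadjusted p = 0.0964), and the myelin glycoprotein Mag 61.2 and 56.3 CPM (0.17 ± 0.11, unadjusted p = 0.123). Without the libraries of high Ttr the median was 0.24, and among only these -0.07 with 3 of 16 genes higher in SA. The summed myelin level overlapped, at 2400 to 3600 CPM in SA and 2440 to 3100 CPM in SU. Of 9 genes of oligodendrocyte precursors 6 were higher, with a median of 0.03. Pdgfra, their growth factor receptor, was the member with an unadjusted p under 0.05, at 40.6 to 44.8 CPM in SA and 40.9 to 49.5 CPM in SU (-0.10 ± 0.05, unadjusted p = 0.0461).

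Astrocyte genes had a median of -0.06, with 2 of 15 higher in SA, and microglial genes one of -0.01, with 3 of 13. Hippocampal principal neurons had -0.07, with 3 of 20 higher, and the member with the smallest p was Pcp4, a calmodulin-binding protein, at 37.8 to 43.3 CPM in SA and 38.8 to 50.8 CPM in SU (-0.16 ± 0.08, unadjusted p = 0.0440). For inhibitory neurons the median was -0.01 and for new neurons and dividing cells 0.01, and for endothelium and pericytes 0.00. Meningeal fibroblasts had 0.16, with 12 of 15 higher, and 0.04 without SA replicate 6 to 0.31 without SA replicate 2, with summed levels of 98.7 to 235 CPM in SA and 144 to 210 CPM in SU, and interferon response genes had 0.09. Thalamic genes, markers of tissue next to the hippocampus, had -0.03.

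Pituitary hormone genes were low in most libraries, with 5 of 6 tested lower in SA, a median of -0.96 and 1 at an unadjusted p under 0.05. Prl, encoding prolactin, was at 0 to 0.233 CPM in SA, and in SU at 1.28 and 6.27 CPM in replicates 5 and 8 against at most 0.358 CPM in the others. Tshb, the beta subunit of thyrotropin, ran the other way, at 0.793 to 1.48 CPM in SA (median 1.21) and 0.538 to 1.33 CPM in SU (median 0.648), a log2 fold change of 0.59 ± 0.19 (unadjusted p = 3.98e-03). Tshb overlaps Tspan2 on the other strand, and the use of strand in the counting is not known, so its reads could belong to that gene. Prl had -3.77 ± 2.15 (unadjusted p = 0.0853), and -1.69 (unadjusted p = 0.568) without SU replicate 8.

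Transcripts of the mitochondrial genome were all in 1 direction. All 13 had the lower fitted level in SA, with a median of -0.08, and 4 had an unadjusted p under 0.05, where 3.79% of all genes did. The cytochrome b gene mt-Cytb ranged from 3430 to 4150 CPM in SA and from 3840 to 4610 CPM in SU (-0.14 ± 0.05, unadjusted p = 9.12e-03), and mt-Co3, of cytochrome oxidase, from 3710 to 4570 and from 4190 to 5040 CPM (-0.14 ± 0.06, unadjusted p = 0.0209). These 13 are cleaved from common precursors and are not independent. All genes of the mitochondrial chromosome together, ribosomal and transfer RNAs included, took a share of all counts of 5.04% ± 0.467 in SA and of 5.32% ± 0.310 in SU, a difference of -0.273 percentage points (exact permutation test, two-sided p = 0.171, adjusted p = 0.515). Without SA replicate 4 the difference was -0.388 points (exact permutation test, p = 0.0373). Chaperones of heat shock and the endoplasmic reticulum had a median of -0.08 with 20 of 22 lower in SA. The one with an unadjusted p under 0.05 ran against the rest: Bag3, a co-chaperone of Hsp70, had medians of 5.97 CPM in SA and 5.04 CPM in SU (0.25 ± 0.10, unadjusted p = 0.0118). Without the libraries of high Ttr the chaperone median was -0.17 and 7 of 22 had an unadjusted p under 0.05, where 1543 of 30254 genes did. Among only the libraries of high Ttr the median was 0.03, with 1 of 22.

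**Figure D4:**
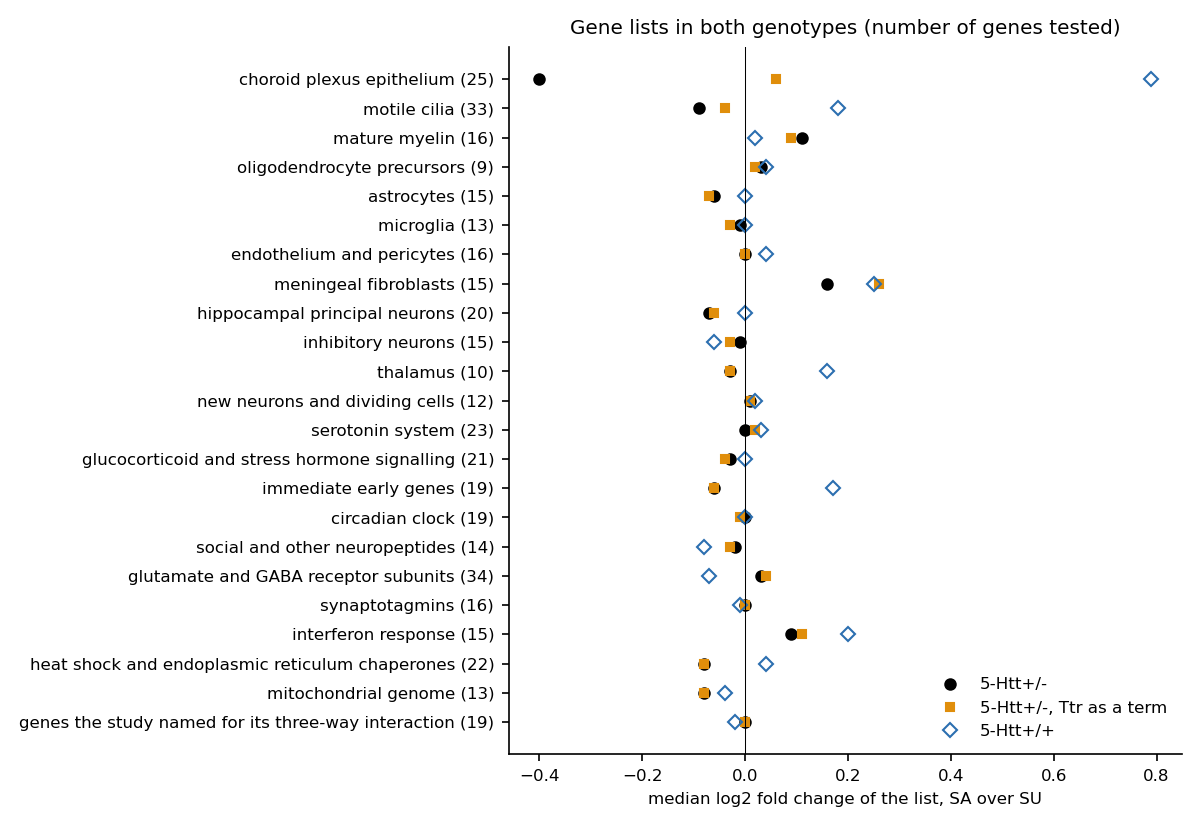
Median log2 fold change, SA over SU (x axis), of 23 gene lists (rows, with the number of genes tested) in 5-Htt+/-, in 5-Htt+/- with the Ttr level as a term, and in 5-Htt+/+. The pituitary list, with 6 genes, most of them low, is left out. The choroid plexus list stands at -0.40 in 5-Htt+/-, at 0.06 with Ttr as a term and at 0.79 in 5-Htt+/+, and every other list lies between -0.09 and 0.26.

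The study named 23 genes from these samples for its interaction of genotype, stress and behaviour, of which 20 were found in the counts and 19 tested. Of these 19, 2 had an unadjusted p under 0.05 in SA against SU 5-Htt+/-, namely Mapk15 and the pseudogene Gm6916. The list median was 0.00. In the difference between the genotypes, for which the study named them, 1 of the 19 had an unadjusted p under 0.05, Mapk15. The median of that difference was 0.02. As the study chose this list on the same samples, neither count is independent evidence. Gm6916 had 3.10 to 6.43 CPM in SA and 5.11 to 6.26 CPM in SU (-0.20 ± 0.09, unadjusted p = 0.0241). Over all 24 lists, 412 different genes were tested, 0 were called and 18 (4.37%) had an unadjusted p under 0.05, beside 3.79% of all genes.

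The same comparison in the libraries labelled 5-Htt+/+, 8 SA against 8 SU, asked whether these differences were shared between genotypes. There 0 genes (0%) were called and 1218 (3.90%) had an unadjusted p under 0.05. Both genotypes shared 63 such genes, of which 31 had the same direction. Avpr1a, at a level of few reads, was among those 31, with a log2 fold change of 1.18 ± 0.45 in 5-Htt+/+. Mapk15 and Pcp4 were shared with opposite directions. None of the 20 leading genes had an unadjusted p under 0.05 in 5-Htt+/+, where their log2 fold changes ran from -0.16 to 0.20. Aspg had 0.05, Coro6 0.10, Sord 0.01, A1cf 0.03 and Trp63 -0.14.

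A test of the difference between the genotypes called 0 genes (0%), with 1156 (3.70%) at an unadjusted p under 0.05 and the smallest adjusted p at 1.0. The likelihood ratio test of edgeR likewise called 0 genes. In the interaction of genotype, stress and behaviour that the study tested, the controls cancel out, so that contrast is this difference up to sign. The study restricted its adjustment to the genes that were nominally significant in it, whereas all genes tested were adjusted here. The genes that the study called and the count given here are therefore not directly comparable. The unadjusted values differed as well. Of the 19 genes of the study tested here, 1 had an unadjusted p under 0.05 in this difference, so the gap was not confined to the adjustment. Its cause was not tested. The values nearest to a difference among the genes named here were those of Syt9 and Mapk15, which had the opposite sign in both genotypes. Syt9 had 0.20 in 5-Htt+/+ against -0.32 in 5-Htt+/- (difference -0.51 ± 0.14, unadjusted p = 6.30e-04), and Mapk15 had 0.69 against -0.55 (difference -1.24 ± 0.37, unadjusted p = 1.65e-03). Maob differed by -0.32 ± 0.10 (unadjusted p = 2.36e-03) and Zcwpw2 by 0.45 ± 0.14 (unadjusted p = 2.03e-03). As the leading genes were chosen for their difference in 5-Htt+/-, a smaller value in the other genotype is no test of a difference particular to 5-Htt+/-. Mapk15 was named by the study from this contrast in the same samples, so its p is no independent test either.

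**Figure D5:**
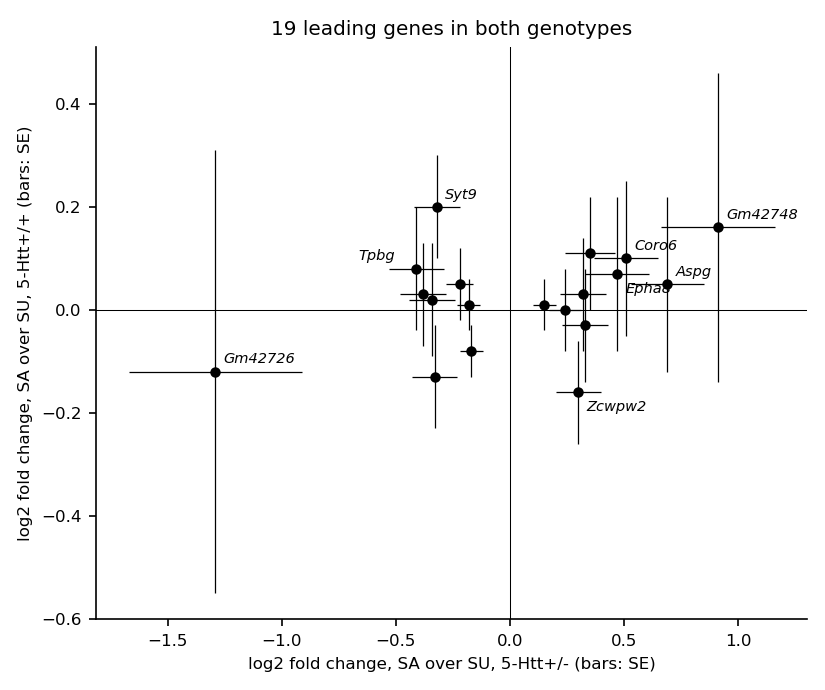
Log2 fold change, SA over SU, of 19 of the 20 leading genes in 5-Htt+/- (x axis) and in 5-Htt+/+ (y axis), with bars of 1 SE. The genes were chosen by the x axis, Trp63 is left out for its scale, and the 5-Htt+/+ values lie between -0.16 and 0.20.

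A set of 17 annotated Snord116 small nucleolar RNAs also varied between libraries. Summed, they stood at 0 to 42.0 CPM in SA with a median of 34.9, and at 0 to 44.0 CPM in SU with a median of 6.65. The difference of the mean log2 level was 1.52 (exact permutation test, two-sided p = 0.335, adjusted p = 0.515), within the spread of both groups. With this level as a term of the fit all 20 leading genes kept their direction and an unadjusted p under 0.05.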

How the data were processed

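Hippocampal RNA of 48 female mice was sequenced as single-end reads. The deposited table holds whole-number read counts per gene for 48440 Ensembl genes, made by the authors. Per the labels STAR, HTSeq, DESeq2 and GRCm38.p5 were used, without versions, whereas the methods of the study name Salmon for gene counts, so the counting and its use of strand could not be settled, and overlapping or duplicated genes remain uncertain. Coordinates were not used in any test. Among 64 pairs of libraries within SA or within SU 5-Htt+/- none was a duplicate, as the smallest chi-square per gene was 4.74 where sampling noise gives about 1.

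The 31208 genes that reached 5 reads in 3 or more libraries were scaled by the upper quartile and fitted over all 6 groups with the quasi-likelihood test of edgeR 4.0.16 (R 4.3.3), with Benjamini-Hochberg adjustment at 0.05. The contrasts were SA against SU within 5-Htt+/-, within 5-Htt+/+, and their difference. Library measures were compared by an exact permutation test over all 24310 assignments, two-sided. Libraries with over 3 times the median Ttr level of 23 CPM were called high. Total counts of 16488405 to 38213754 per library limit low genes to few reads, and errors are SD for levels and SE for fold changes.

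The text names genes by this rule: any called gene, the 10 genes in each direction with the smallest unadjusted p at a mean of at least 1 CPM over the 17 libraries, up to 2 genes of each list by smallest p, and Ttr, Slc6a4, Mapk15, Syt9, Sgk1, Oxtr and Avpr1a. Marker genes of the tissue and choroid plexus, Ilf2, Cnot11 and Tprg were added after their values were seen. The groups compared, the lists and these genes were chosen with earlier results of these data known. On the lists, 5 names were not found. Alternatives were other tests (likelihood ratio, the earlier quasi-likelihood form, DESeq2 1.42.0), other scalings and filters, covariates, a replicate block, and leaving out libraries. The settings among only libraries of high Ttr, without both libraries of high Trp63 and without libraries of Prl at or above 1 CPM, and Fisher's test, were chosen after seeing the data. The scripts were tested on generated data with known differences.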

Additional observations from a re-analysis of the deposited data

Results flagged for a closer look

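Of 102 sets of values, those of 47 genes and 4 library measures in SA and in SU 5-Htt+/-, 9 (8.82%) had 1 library far from the others of its group by Dixon's test. The test marks about 1 in 20 sets by chance only if values are normally distributed and the sets independent. The flagged gene levels were CPM without a log scale, all 9 at the high end, and genes of 1 library are not independent. The share is therefore not read as an excess over chance. SA replicate 7 held 4 of the 9 flagged values, as the highest of 8 libraries. It had 3.54 CPM of Epha8 against a group median of 2.56, 15.4 CPM of Crhr1 against 12.6, 107 CPM of the immediate early gene Egr1 against 71.6, and 18.7 CPM of Grm4 against 10.8. Its Ttr level was in the low range, at 19.4 CPM. Without this library the log2 fold change of SA over SU was 0.39 (unadjusted p = 0.0092) for Epha8, 0.10 (unadjusted p = 0.0818) in place of 0.15 for Crhr1, and 0.17 (unadjusted p = 0.144) in place of 0.29 for Grm4.

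The snoRNA Gm22489 was far above the rest in SA replicate 8, at 8.61 CPM against a median of 6.68, and in SU replicate 6, at 12.2 CPM against 8.54. Rsph1 had 4.6 CPM in SU replicate 9, the library of the highest Ttr level, against a median of 2.60. Prl had 6.27 CPM in SU replicate 8 against 0.0529, and Lmx1a 1.28 CPM in SA replicate 3, the SA library of the highest Ttr level, against 0.282.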

How the results depend on the processing

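In SA against SU 5-Htt+/-, the 0 called genes became 1 under the likelihood ratio test of edgeR (Trp63), 1 with the Snord116 level as a term (Calhm3) and 2 with a replicate block (Gm20172, Gm37543, both higher in SA). The last fit used the 17 libraries compared and had 1197 genes at an unadjusted p under 0.05. For Calhm3, only 1 SA library, at 5.64 CPM against an SA median of 0.0704, exceeded every SU library. Gm20172 and Gm37543 lie close together on the minus strand of chromosome 1. Their levels in SA were at most 0.745 and 0.652 CPM, so they may not count as separate differences. Replicate numbers did not pair the libraries: deviations of same-numbered libraries correlated between -0.109 and 0.144, and 1 of 8 SA libraries correlated best with its own number. The count at an unadjusted p under 0.05 was 1852 with the mitochondrial share as a term and 966 to 1614 without 1 library, while the called count stayed at 0. The split of these genes was 635 higher to 541 lower under relative log expression scaling. In 5-Htt+/+, 1 gene was called by DESeq2 and 1 among only libraries of high Ttr, and 0 to 1 without 1 library of 5-Htt+/- (1 without its SU replicate 3). No 5-Htt+/+ library was left out alone. The difference of genotypes had 2 calls among only libraries of high Ttr and 0 to 1 without 1 library of 5-Htt+/- (1 without its SA replicate 3). The causes were not tested.

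Of 1644 values of 47 genes under 35 alternatives, 26 had the opposite sign and 1617 kept direction and side of the threshold. Trp63 passed under the likelihood ratio test (-2.47). Signs turned without libraries of high Ttr for Trp63 (0.00), Mapk15 (0.10), Oxtr (-0.02), Ttr (0.55) and Otx2 (0.61), and among only these for Aspa (-0.02), Mag (-0.09), Lmx1a (0.11), Ttr (0.16) and Slc6a4 (-0.08). They also turned for Trp63 without both libraries of high Trp63 (0.04) and for Ttr with itself as a term (0.00). Slc6a4, at 0.00, had -0.00 under the earlier quasi-likelihood form, and -0.01 without a filter, with Snord116 as a term and without both libraries of high Trp63. Without 1 library, Slc6a4 ran from -0.03 to 0.03, Oxtr from -0.01 to 0.10, the mitochondrial share from -0.388 to -0.183 points and total counts from -0.351 to 2.03 M. Depth limits genes near 0.1 CPM, such as Avpr1a, to a few reads.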
